A study of Homo sapiens with 3 samples.

Results

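The 10 genes described here are transcription factors and state markers of epithelial-mesenchymal transition (EMT): SNAI1, SNAI2, TWIST1, TWIST2, ZEB1, ZEB2, CDH1, CDH2, VIM and FN1. They were chosen by name, with no threshold on binding but with earlier results of these data known. They are 10 of 19974 protein-coding genes on chromosomes 1 to 22 and X. Binding of BRG1, the ATPase encoded by SMARCA4 in SWI/SNF chromatin remodelling complexes, was mapped by chromatin immunoprecipitation and sequencing (ChIP-seq) in wild-type 12Z cells. The 12Z line is an established cell line of epithelial cells from human endometriosis. There were 2 BRG1 ChIP libraries (replicates 1 and 2, both with an anti-BRG1 antibody) and 1 input library made without antibody, all of the wild-type line, and no label says whether the replicates were separate cultures. The authors' peak lists held 17399 peaks for replicate 1, 10157 for replicate 2 and 6343 in a series-wide overlap list, whose peaks are called shared peaks here. A peak counted for a gene when its midpoint lay in the gene body, or within 100 kb with that gene as the nearest protein-coding gene. These positions are called the domain of the gene. All groups carry the same genotype and treatment, so there is no contrast between conditions and no test is given; the members are set beside the same counts over all genes. The lists give no reads per library, and sequencing depth is therefore unknown.

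In EMT, epithelial cells lose cell-cell junctions and take on migratory, mesenchymal features. SNAI1 and SNAI2 (zinc-finger proteins) and ZEB1 and ZEB2 (zinc-finger and homeodomain proteins) bind E-box sequences and are best known as repressors of CDH1, while TWIST1 and TWIST2 are basic helix-loop-helix factors. CDH1 encodes E-cadherin, the adhesion molecule of adherens junctions, and CDH2 encodes N-cadherin, which often replaces it. VIM encodes the intermediate filament protein vimentin and FN1 the matrix protein fibronectin. BRG1 has been described as a partner of ZEB1 in repression of CDH1 in other cells. A peak measures binding to chromatin and says nothing by itself about whether a gene is expressed.

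BRG1 peaks shared by the replicates lay in the domains of 4 of the 10 genes, ZEB2, TWIST2, CDH2 and FN1, against 9.67% of all genes. FN1 had 2 shared peaks and ZEB2, TWIST2 and CDH2 had 1 each. SNAI1, SNAI2, TWIST1, ZEB1, CDH1 and VIM had none. Replicate 1 had 26 peaks in the domains of 8 members, against 20.2% of all genes, and replicate 2 had 8 peaks in the domains of 5 members, against 11.5% of all genes. ZEB1 and SNAI2 had no peak in any of the 3 lists. The domains of the members were long, with a median of 168 kb against 56.2 kb over all genes, and a longer domain can hold more peaks. Among genes with a domain of 100 kb or more, 7 were members and 4 of those 7 had a shared peak, against 19.9% of all 6738 such genes. In the same long-domain genes a replicate 1 peak was present for 5 of the 7 members, against 39.0% of all, and a replicate 2 peak for 4 of the 7, against 23.4% of all. With 10 genes chosen by name, these counts describe the members and are not a measure of enrichment.

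**Figure D1:**
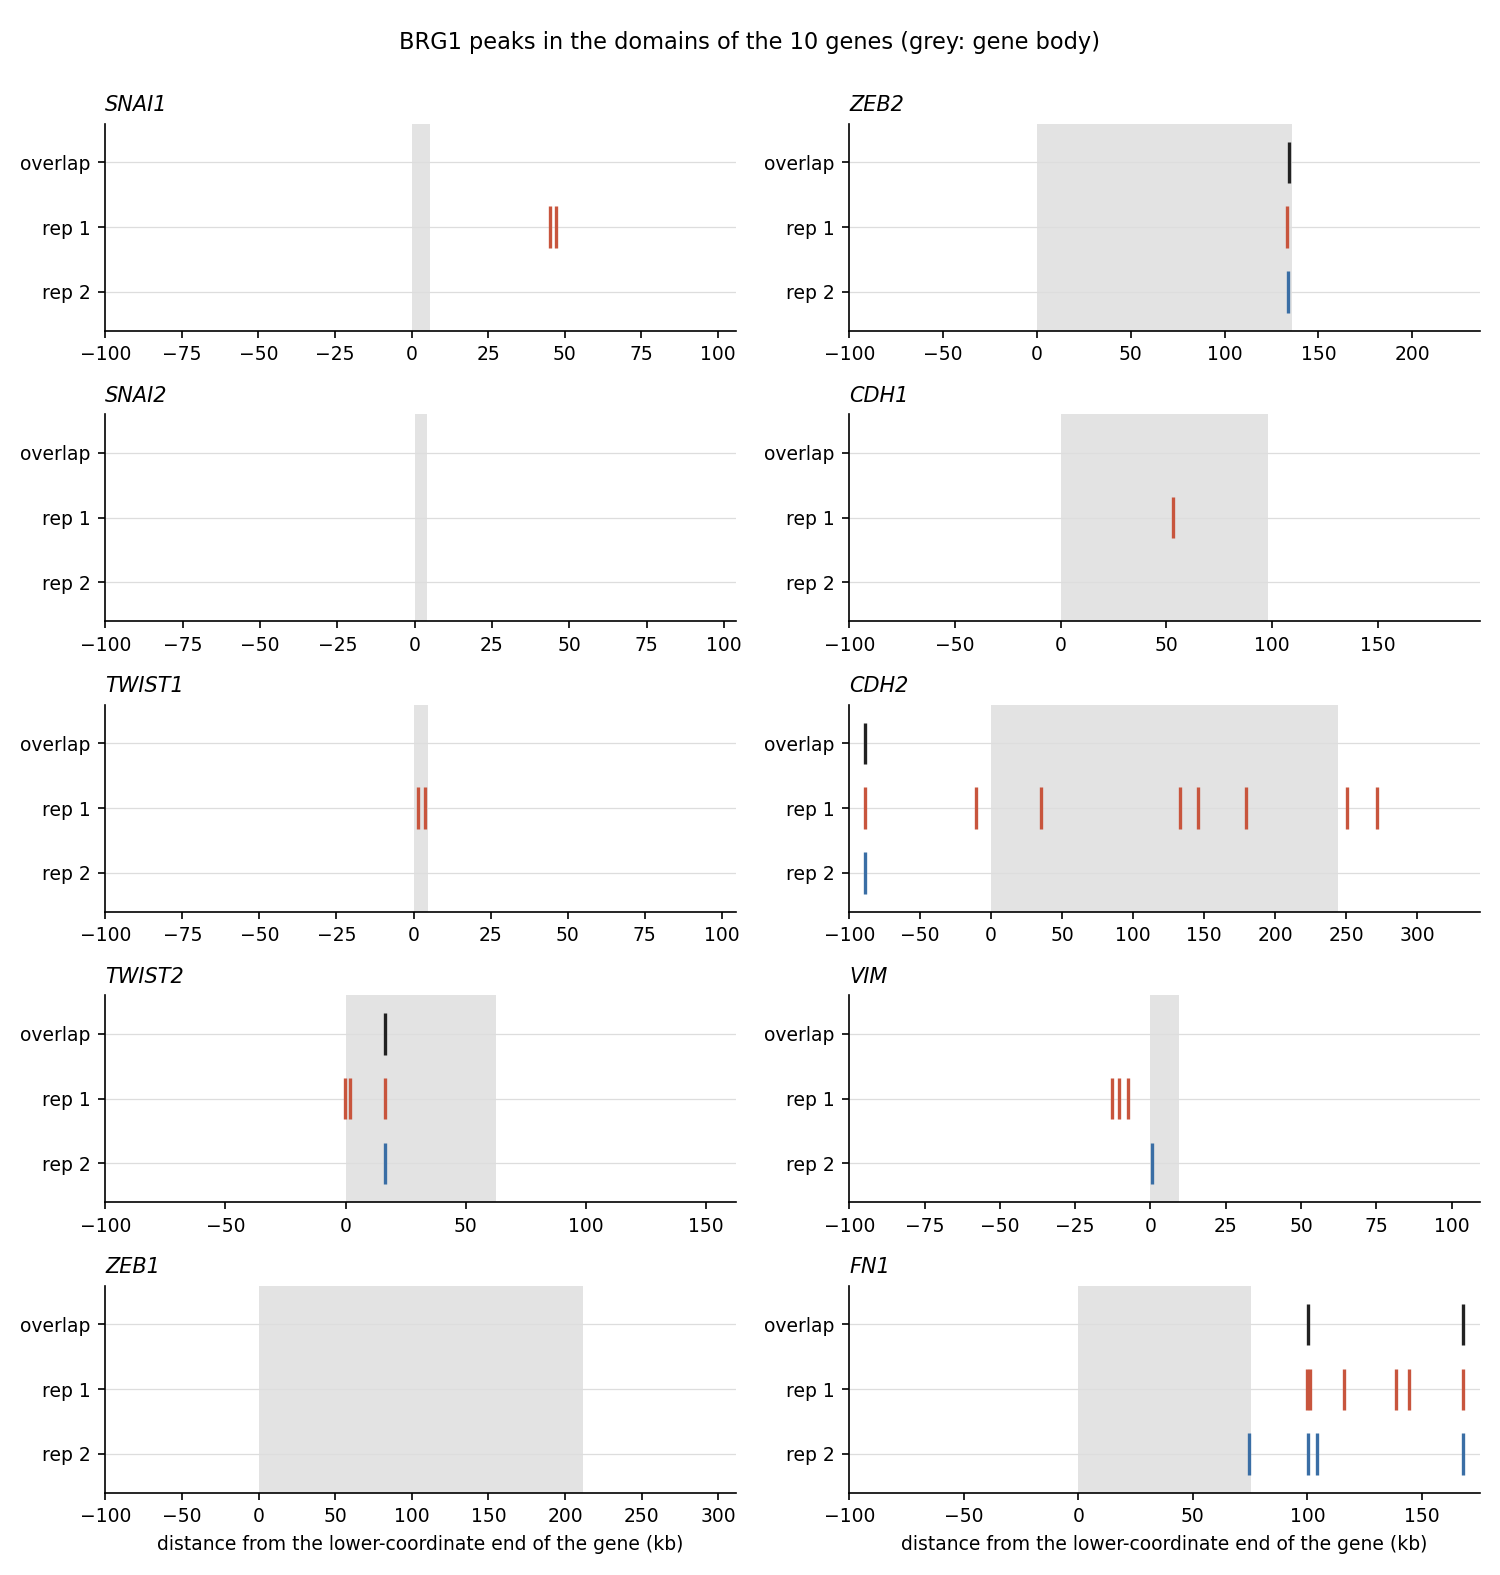
Positions of BRG1 peaks around the 10 genes, in kb from the lower-coordinate end of each gene, with the gene body in grey and 100 kb of flank on either side. Each tick is the midpoint of a peak that counted for the gene in the overlap list (black), replicate 1 (red) or replicate 2 (blue). ZEB1 and SNAI2 have no tick, and replicate 1 alone marks SNAI1, TWIST1 and CDH1.

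ZEB2 was the only member with a shared peak within 3 kb of a gene end, a position found for 2.24% of all genes. In replicate 1 such peaks were found for 3 members, TWIST1, TWIST2 and ZEB2, against 6.85% of all genes, and in replicate 2 for 3 members, ZEB2, VIM and FN1, against 3.0% of all genes (600). TWIST1 has a body of only 4.59 kb, so any peak inside it lies within 3 kb of an end. The shared ZEB2 peak lay inside the gene on chromosome 2, from 144517341 to 144519527 (GRCh38.p12), 592 to 2778 bases downstream of the transcription start. It was 2187 bases wide, with a fold enrichment over background of 3.28 and a −log10 p of 5.51 in the authors' overlap list. The replicate peaks that overlapped it differed in width. The replicate 2 peak was 878 bases wide with a fold of 3.85, and the replicate 1 peak was 102 bases wide, the smallest width in that list, with a fold of 3.78. The narrow replicate 1 peak lay wholly within the replicate 2 peak, 2.58 to 2.68 kb after the start, so the stretch of the shared peak nearest to the start was a peak in neither replicate. By −log10 p the shared ZEB2 peak was weak within its list, since 86.5% of shared peaks were at or above it.

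TWIST2 had the strongest shared peak of the 10 genes by −log10 p. It lay within the gene on chromosome 2, from 238863845 to 238864836, 15.8 to 16.8 kb downstream of the start. Its fold was 3.55 and its −log10 p 7.47, a level reached by 32.7% of shared peaks. The replicate 1 peak there had a fold of 4.29 and a −log10 p of 7.30, a level reached by 8.48% of that list. The replicate 2 peak had a fold of 3.64 and a −log10 p of 5.16, a level reached by 69.6% of that list, and shared 417 bases with the replicate 1 peak. By −log10 p the site was thus high in its list in replicate 1 and below the median in replicate 2. Replicate 1 held 2 more TWIST2 peaks that replicate 2 lacked, from 295 bases before to 32 bases after the start (fold 3.63) and from 1.72 to 2.09 kb after it (fold 3.30). Of the replicate 1 list, 60.9% and 99.3% were at or above them by −log10 p, so the second was among the weakest. Replicate 2 listed no peak at the TWIST2 start.

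The replicate 1 peak over the TWIST2 start covered all 250 bases before it, and the start of ZEB2 was the one nearest to a shared peak. Replicate 2 alone had a peak just inside VIM, 288 to 541 bases after the start (fold 4.13), and just inside FN1, 354 to 646 bases after the start (fold 3.49). By −log10 p the FN1 peak was among the weakest of its list, with 97.3% of replicate 2 peaks at or above it, against 35.9% for the VIM peak. The 250 bases before these 4 starts are given from RefSeq (GRCh38.p14), to show the base content of these bound or neighbouring promoters. Each is written 5′ to 3′ on the strand of the gene, with CG dinucleotides in capitals.
TWIST2, chr2:238847835-238848084, plus strand: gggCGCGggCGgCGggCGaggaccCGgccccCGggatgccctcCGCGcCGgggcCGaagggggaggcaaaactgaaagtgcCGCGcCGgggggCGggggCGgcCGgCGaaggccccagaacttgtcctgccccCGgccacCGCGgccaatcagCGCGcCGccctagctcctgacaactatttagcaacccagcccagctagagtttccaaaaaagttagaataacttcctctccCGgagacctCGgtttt
ZEB2, chr2:144520120-144520369, minus strand: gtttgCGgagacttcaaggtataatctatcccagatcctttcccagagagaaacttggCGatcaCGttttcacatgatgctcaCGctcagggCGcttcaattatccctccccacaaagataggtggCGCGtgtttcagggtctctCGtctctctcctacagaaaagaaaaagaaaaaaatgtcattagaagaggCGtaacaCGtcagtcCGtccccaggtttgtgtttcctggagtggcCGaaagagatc
FN1, chr2:215436069-215436318, minus strand: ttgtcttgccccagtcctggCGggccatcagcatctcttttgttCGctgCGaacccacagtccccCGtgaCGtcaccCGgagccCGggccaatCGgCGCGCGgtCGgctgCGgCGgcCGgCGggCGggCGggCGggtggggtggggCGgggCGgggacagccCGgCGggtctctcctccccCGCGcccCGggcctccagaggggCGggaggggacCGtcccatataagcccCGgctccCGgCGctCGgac
VIM, chr10:17227991-17228240, plus strand: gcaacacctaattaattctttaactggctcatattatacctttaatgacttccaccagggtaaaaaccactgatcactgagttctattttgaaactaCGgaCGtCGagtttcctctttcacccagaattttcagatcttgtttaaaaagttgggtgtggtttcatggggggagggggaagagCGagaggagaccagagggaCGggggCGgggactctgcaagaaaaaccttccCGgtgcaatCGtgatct
FN1 held 32 CG dinucleotides and TWIST2 held 26, ZEB2 held 12 and VIM held 8, against a median of 11 over 35116 RefSeq promoters. As many CG or fewer were found in 91.9% of promoters for FN1, 82.3% for TWIST2, 53.4% for ZEB2 and 45.9% for VIM. The E-box CACCTG, searched on both strands, was in none of these 4 windows and in 17.5% of all promoters. The general E-box CANNTG, which includes CACCTG, was found in ZEB2 at position -180 from the start and in none of TWIST2, FN1 and VIM, against 61.8% of all promoters. TGANTCA, the AP-1 motif, and GGAATG, the TEAD motif on both strands, were also in none of the 4 windows, against 6.57% and 11.9% of all promoters. With only 4 windows, these absences describe the windows and are not evidence of depletion. Outside the 4, a CDH2 window (chr18:28036642-28036891) held TGANTCA at position -102. Of the 7 promoter windows that the table gives for ZEB1, which had no peak, 2 held CACCTG, with 3 matches in all.

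TWIST1 and SNAI1 had peaks in replicate 1 alone. TWIST1 is a short gene of 4.59 kb, and both of its replicate 1 peaks lay inside it on chromosome 7, from 19114497 to 19114832 (fold 3.58) and from 19116709 to 19116904 (fold 3.44). In replicate 2 the peak nearest to TWIST1 lay 103 kb away. It was nearer to the neighbour HDAC9, a histone deacetylase gene, and counted for that gene. The SNAI1 peaks lay on chromosome 20, 39.2 kb (fold 3.07) and 41.2 kb (fold 3.03) from the gene, the farther one within the long non-coding RNA gene SCREEM1. Their −log10 p values were 4.53 and 4.21, and 87.1% and 99.9% of the replicate 1 list were at or above them. No replicate 2 or shared peak lay closer to SNAI1 than 115 kb, where all 3 lists had a peak that counted for UBE2V1.

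For ZEB1 the nearest peak lay 239 kb from the gene in all 3 lists, each time in the domain of ARHGAP12. ZEB1 has a body of 211 kb and a domain of 348 kb, and 95.1% of genes had a domain of that length or shorter. SNAI2, a gene of 3.83 kb on chromosome 8, had its nearest replicate 1 peak at 274 kb and its nearest shared peak at 508 kb. A shared peak as near or nearer was found for 59.8% of all genes in the case of SNAI2, and for 39.9% in the case of ZEB1.

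FN1 had 2 shared peaks, and both lay upstream of its start, as did all 6 of its replicate 1 peaks. No other member had more than 1, but this order did not hold under other settings: with a limit of 50 kb FN1 had 1 shared peak, as did TWIST2 and ZEB2, with 1 Mb CDH2 also had 2, and with 50% overlap of the replicate peaks FN1 had 0 and CDH2 had 1. At least 2 shared peaks, as for FN1, were found for 3.27% of all genes (653). The nearer shared peak, on chromosome 2 from 215459949 to 215462506, lay 23.9 to 26.4 kb before the start, was 2558 bases wide and had a fold of 3.48 and a −log10 p of 6.07. It lay over the non-coding RNA gene LOC102724849. Replicate 1 split this stretch into 2 peaks, of folds 3.93 and 3.53, and replicate 2 had a single peak of fold 3.85 that overlapped both, by 391 and 133 bases. The farther shared peak, from 215528428 to 215529383, lay 92.8 kb from the gene, just inside the limit, with a fold of 3.83 in the overlap list, 3.86 in replicate 1 and 4.05 in replicate 2. Its replicate 2 peak of 317 bases lay wholly within the replicate 1 peak. Between these sites replicate 1 had 3 further peaks, at 40.7, 63.5 and 69.3 kb, with folds of 3.43 to 3.71. Replicate 2 had none of these 3, but listed a peak of 101 bases at 29.1 kb (fold 4.22) and the peak just inside the gene.

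CDH2, the N-cadherin gene, had more replicate 1 peaks than any other member, 8, a count that 0.821% of all genes reached. Of these 8, 4 lay in the gene body, 2 upstream and 2 beyond the 3′ end, and their folds ran from 3.41 to 4.14. The highest lay 27.2 to 27.5 kb before the start, at 28204295 to 28204636 on chromosome 18. Replicate 2 held 1 of the 8, the site farthest from the gene. That site, shared from 27843586 to 27844407, lay 88.9 kb beyond the 3′ end, with a fold of 3.28 in the overlap list, 3.45 in replicate 1 and 3.83 in replicate 2. Of the 5 shared peaks of the members it was the weakest by −log10 p, at 5.38, and 90.2% of the overlap list were at or above it. The replicate peaks there overlapped by 435 bases. With its body of 244 kb, CDH2 had a domain of 444 kb, and 96.8% of genes had a domain of that length or shorter.

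VIM showed a different set of sites in each replicate and no shared peak. Replicate 1 had 3 narrow peaks upstream of the start on chromosome 10, at 12.8, 10.4 and 7.59 kb from the gene, with folds of 3.51, 3.58 and 3.38. All 3 lay in VIM-AS1, the antisense RNA gene, as did the single replicate 2 peak, from 17228529 to 17228782, inside VIM. By fold the replicate 2 peak stood high in its list, with 17.4% of peaks at or above it. The nearest shared peak was 2017 kb away, and 89.4% of all genes had one as near or nearer.

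CDH1, the E-cadherin gene, was the member farthest from any shared peak, at 3323 kb, and 94.5% of all genes had one as near or nearer. Replicate 1 listed 1 peak within the gene, from 68790480 to 68790581 on chromosome 16, 102 bases wide with a fold of 3.49 and a −log10 p of 4.67. The next replicate 1 peak was 1072 kb from the gene. In replicate 2 the nearest peak was 1491 kb away. CDH3, the P-cadherin gene that lies 3.52 kb from CDH1, and TANGO6 on the other side had no peak in any list.

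**Figure D2:**
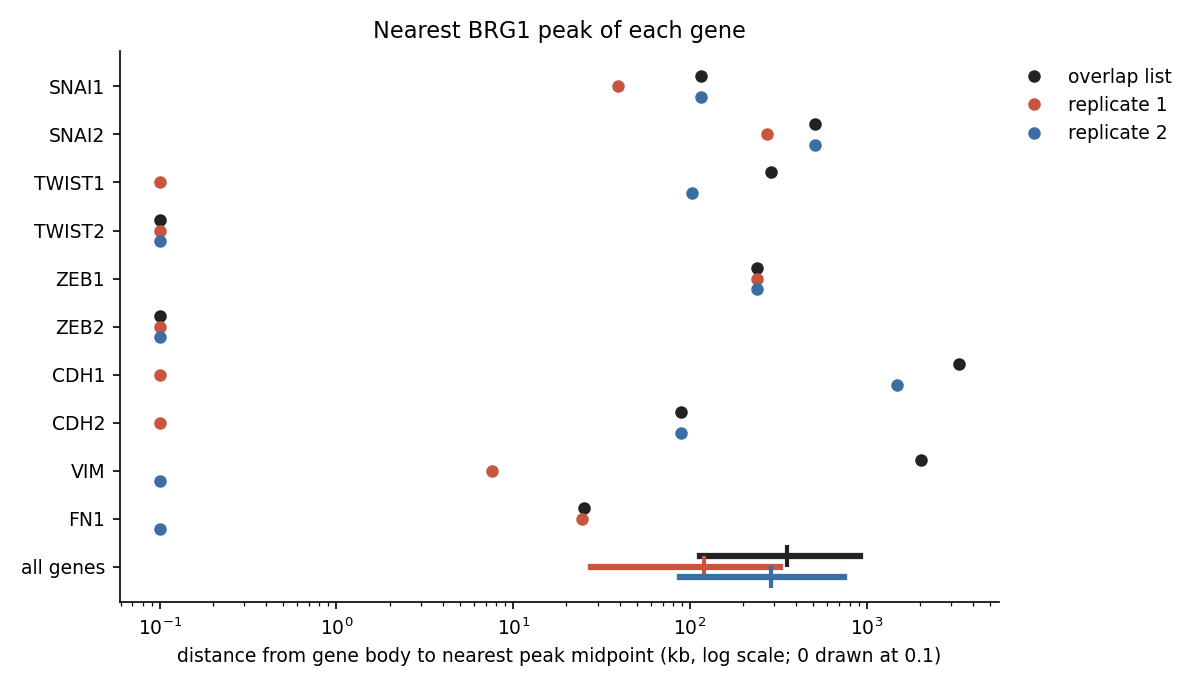
Distance from each gene body to the midpoint of the nearest peak of each list, on a log axis in kb, with 0 (midpoint inside the gene) drawn at 0.1. For all genes the bar spans the quartiles and the tick marks the median, which was 354 kb for shared peaks. CDH1 and VIM lie at 3323 and 2017 kb for shared peaks, and TWIST2 and ZEB2 at 0.

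Most replicate 1 peaks of the members were not found in replicate 2. Of the 26, 6 overlapped a replicate 2 peak by at least 1 base (23.1%), against 33.0% of all replicate 1 peaks in gene domains. Of the 8 replicate 2 peaks, 5 overlapped a replicate 1 peak (62.5%), against 74.1% of all replicate 2 peaks in gene domains. The 6 replicate 1 peaks found in both were wider than the other 20, with a median of 807 against 273 bases, and 545 against 307 bases over all replicate 1 peaks in gene domains. Their median fold was 3.82 against 3.53 for the other 20. In replicate 2 the 5 peaks found in both had a median fold of 3.85, against 4.13 for the 3 others, one each near and in FN1 and one in VIM. Over all replicate 2 peaks in gene domains the order was the reverse, with 3.92 for peaks found in both against 3.71 for the others.

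The 5 shared peaks had folds from 3.28 to 3.83 with a median of 3.48, against a median of 3.33 over all shared peaks, but 2 of the 5 reached the list's median −log10 p. Of the 26 replicate 1 peaks, 14 reached the median fold of that list and 6 the median −log10 p. Of the 8 replicate 2 peaks, 6 reached the median fold and 3 the median −log10 p. None of these peaks had a −log10 q as high as 5, a level met by 1353 of 6293 shared peaks, 534 of 17323 replicate 1 peaks and 509 of 10082 replicate 2 peaks on chromosomes 1 to 22 and X. The highest −log10 q among the members was 4.42 for shared peaks and 3.81 for replicate 1, both at TWIST2, and 2.59 for replicate 2, near FN1.

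**Figure D3:**
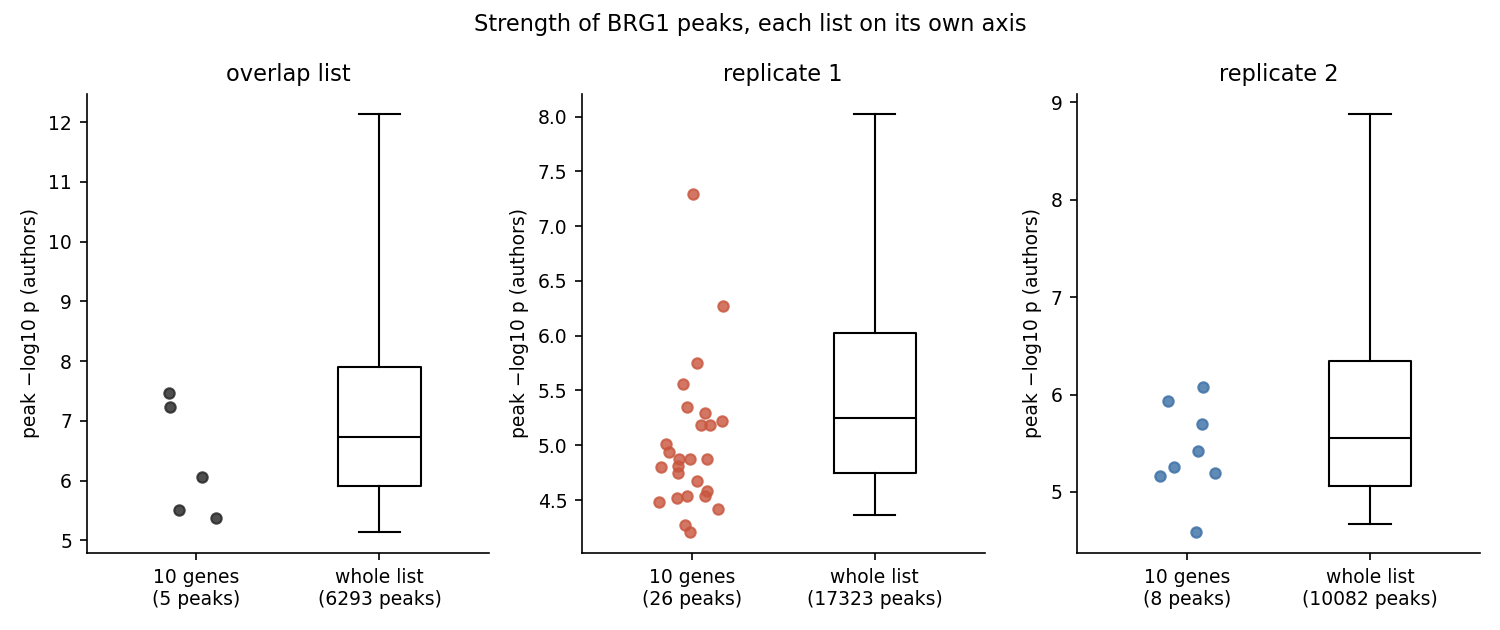
The authors' −log10 p of each peak of the 10 genes (points) beside the whole list on chromosomes 1 to 22 and X (box: quartiles and median, whiskers: 5th to 95th percentile), with a separate axis for each list. The highest point of replicate 1, at 7.30, is the TWIST2 peak inside the gene, and 2 of the 5 shared peaks lie above the list's median.

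By position, member peaks lay both in gene bodies and in flanks. Inside the body were 2 of 5 shared peaks, 10 of 26 replicate 1 peaks and 4 of 8 replicate 2 peaks, against 56.9%, 59.4% and 56.6% of all peaks in gene domains. FN1, VIM, CDH2 and SNAI1 accounted for the flanking peaks with the exception of the one at the TWIST2 start. Over a non-coding RNA gene lay 1 of the 5 shared peaks, 7 of the 26 in replicate 1 and 2 of the 8 in replicate 2, against 16.5%, 16.1% and 16.2% of all peaks in gene domains.

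Other genes of the pathway were counted in 5 lists, also chosen with earlier results of these data known. Genes of the mesenchymal state had a shared peak for 13 of 28 members (46.4%), against 9.67% of all genes. Among all genes with a domain of 100 kb or more the share was 19.9%. At a gene end 3 of the 28 had one, against 2.24% of all genes. Among these were TNC, encoding the matrix protein tenascin C, with 6 shared peaks, and THY1 with 1. CD44, a hyaluronan receptor, LOXL2, a lysyl oxidase, and CALD1, an actin-binding protein, had 4 each, and COL5A1 had 3. Genes of the epithelial state had a shared peak for 6 of 28 (21.4%), against 9.67% of all genes. KRT7 had 1 at a gene end, KRT8 had 3, and KRT18, CLDN4, GRHL2 and CTNND1 had 1 each. When 50% of both replicate peaks had to overlap, 1 of the 28 epithelial and 9 of the 28 mesenchymal genes kept a peak. Under that rule 5.25% of all genes had one.

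Signals and kinases that act on EMT had a shared peak for 8 of 18 genes (44.4%), against 9.67% of all genes and 19.9% of genes with a domain of 100 kb or more. MET, the hepatocyte growth factor receptor, had 3 shared peaks and IL6 had 1, and both had at least 1 at a gene end. SMAD3, a mediator of TGF-beta signalling, had 13 shared peaks and TGFB2 had 2. SMAD2, JAG1, HGF and FBXL14 had 1 each. Of 21 further EMT transcription factors, 3 had a shared peak, RUNX1 and RUNX2 with 4 each and TCF4 with 1, none at a gene end. That share of 14.3% lay between the 9.67% of all genes and the 19.9% of genes with a domain of 100 kb or more, for a list with a median domain of 128 kb. Of 13 corepressors of the SNAI and ZEB proteins none had a shared or replicate 2 peak, and 5 had a replicate 1 peak: CTBP2, HDAC2, AJUBA, LIMD1 and SMARCA4, the gene of BRG1 itself. Over all genes the shares were 9.67% for shared, 11.5% for replicate 2 and 20.2% for replicate 1 peaks, so a count of 0 among 13 genes is not evidence that binding is absent. The median number of shared peaks per gene was 0 in each of the 5 lists and over all genes. Median domains were 112 kb for the mesenchymal list, 59.2 kb for the epithelial list and 143 kb for the signals, so the lists differ in how many peaks they could hold. Among markers of cell types, a shared peak was found for 3 of 6 epithelial, 5 of 6 stromal fibroblast, 0 of 3 endothelial and 0 of 3 leukocyte genes, against 9.67% of all genes. Median domains were 64.7 kb for the epithelial and 138 kb for the stromal fibroblast markers, so these too differ in how many peaks they could hold. Counts of 0 among so few genes separate no cell type, and none of these counts measures expression.

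**Figure D4:**
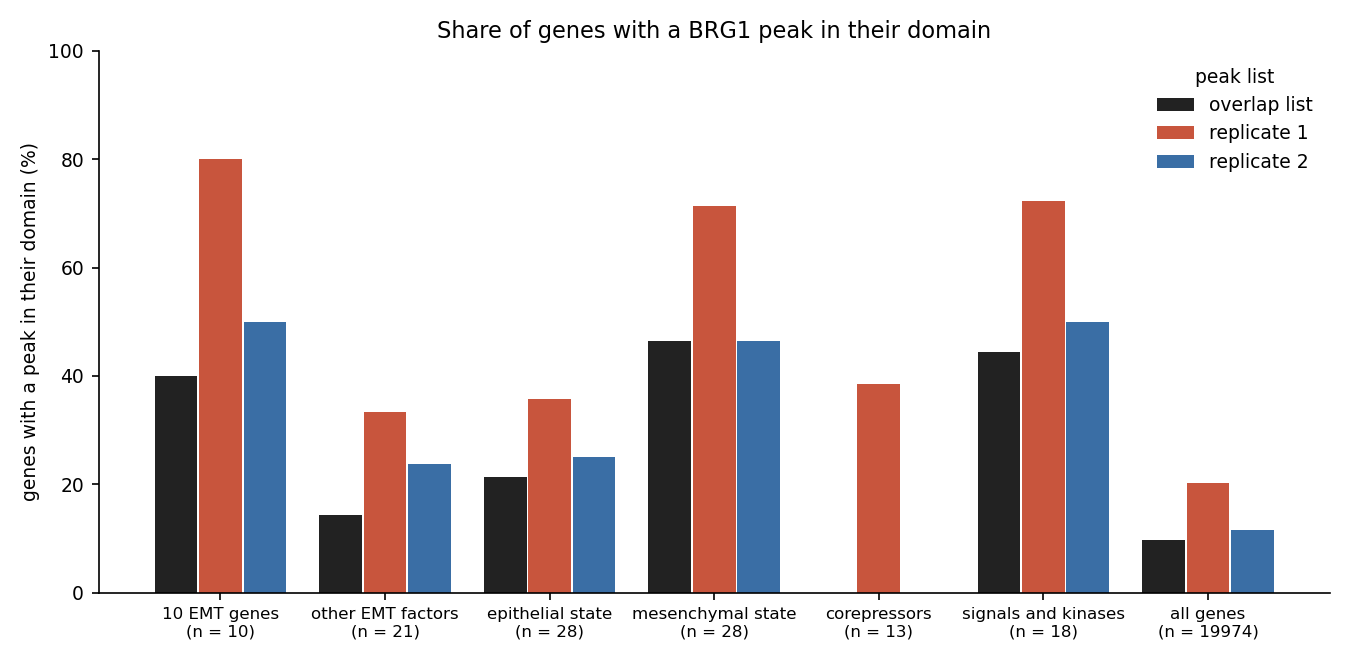
Percent of genes with a BRG1 peak in their domain in the overlap list, replicate 1 and replicate 2, for the 10 EMT genes, 5 lists of other pathway genes and all 19974 genes. Shared peaks were found for 4 of the 10 genes, 13 of 28 mesenchymal genes and 0 of 13 corepressors, against 9.67% of all genes.

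MicroRNAs of the miR-200 family target ZEB1 and ZEB2, and those of the miR-34 family target SNAI1, so their loci were examined as well. The mature sequences are shown to group them by seed (bases 2 to 8, in capitals), from RefSeq (GRCh38.p14).
hsa-miR-200b-3p: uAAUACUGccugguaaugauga
hsa-miR-200c-3p: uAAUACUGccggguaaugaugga
hsa-miR-429: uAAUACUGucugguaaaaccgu
hsa-miR-200a-3p: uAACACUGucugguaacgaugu
hsa-miR-141-3p: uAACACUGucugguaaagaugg
hsa-miR-34a-5p: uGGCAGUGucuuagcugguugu
miR-200b, miR-200c and miR-429 share a seed, as do miR-200a and miR-141. No miR-200 gene had a peak within 100 kb in any list. MIR200C and MIR141, neighbours on chromosome 12, lay 116 and 115 kb from a shared peak in the domain of C1R. MIR200A, MIR200B and MIR429, on chromosome 1, lay 517 to 519 kb from the nearest shared peak and 192 to 194 kb from the nearest replicate 2 peak. MIR34A was nearer to binding, with a shared peak 12.2 kb away (fold 3.43) that both replicates listed and that lay in the domain of GPR157. MIR34B and MIR34C lay 44.8 and 44.3 kb from a shared peak in the domain of LAYN, and 7.99 and 7.50 kb from a replicate 1 peak. MIR205, which also targets the ZEB genes, lay 3207 kb from a shared peak.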

How the data were processed

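BRG1 ChIP-seq peaks from 2 replicates of wild-type 12Z cells were examined, and no input list was analysed. Per the labels' protocols, chromatin fixed in 1% formaldehyde was digested with micrococcal nuclease before a short sonication. Per the submitters' processing notes, Bowtie2, Picard, SAMtools, bedtools, MACS2, Trim Galore and cutadapt were used, with build GRCh38.p12. Their versions, settings and roles, and the replicates' independence, are not stated there, so the replicates may be technical. For each peak the deposited lists hold a fold enrichment (ratio over background) as well as −log10 values of p and q. The deposited score column was not used. How the overlap list was made, and whether from pooled reads, is not stated. Fold and −log10 p are the authors' values and were used to describe and rank peaks within a list; folds of different lists stand side by side only as such values.

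Chromosomes 1 to 22 and X were used, which hold 6293 shared, 17323 replicate 1 and 10082 replicate 2 peaks. Gene bodies and neighbours came from a RefSeq table of GRCh38.p14, and only peak and promoter coordinates are printed. It has no strand, so gene ends include both ends; strand came from the RefSeq promoter table where it lists a gene. Distances to a start are given for the 6 of 10 members it lists. A shared peak was at a gene end when it overlapped 3 kb either side of it. Replicate peaks were matched by an overlap of 1 base or more. Motifs were searched in the 250 bases before each start. The domain assignment was run on simulated peaks placed inside a gene or at its end, and 200 of 200 were recovered among 19974 genes. Their midpoints all lay in a gene, so this count checks the code and not the nearest-gene rule within 100 kb. Python 3.11.15, numpy 2.4.6, pandas 2.3.3 and matplotlib 3.10.9 were used.

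The 10 members and the lists were chosen with earlier results of these data known. Named were all members, the nearest peaks of those without one, list genes with a shared peak at a gene end, and up to 4 others per list with the most shared peaks, ties included, except for 1 gene that is not reported here; genes outside this rule (neighbours of members, corepressors with a replicate 1 peak) were chosen after their values were seen. The comparison with genes of long domains was also chosen then. Folds and ranks carry no error, since each list has 1 value per peak. Distance limit, peak placement, q threshold, overlap rule, gene-end window and the use of each replicate alone were varied.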

Additional observations from a re-analysis of the deposited data

How the results depend on the processing

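Of the 10 genes, 4 had a shared peak; the count was 3 with a domain limit of 50 kb, where CDH2 dropped out, and 4 with 1 Mb, with any overlap, and with replicate 1 peaks that overlapped replicate 2. When 50% of both replicate peaks had to overlap, 1 member (CDH2) remained, and with a −log10 q of 5 or more required in both replicates none did; the same threshold within each replicate's list left 0 members in each, against 8 in replicate 1 and 5 in replicate 2. Without replicate 1 (5 members) and without replicate 2 (8 members) the remaining replicate's own list was used. Over all genes, 1932 became 1049 with 50% overlap, 25 with the stricter q, and 2290 to 4033 when a replicate was left out. The shared peaks of the members, 5 in all, became 3 with 50 kb, 1 with 50% overlap, 0 with the stricter q, and 8 to 26 when a replicate was left out. Pathway genes with a shared peak, 30 of 108, became 17 with 50% overlap, 0 with the stricter q and 34 to 55 when a replicate was left out. Members with a gene-end peak, 1 (ZEB2), became 0 with 50% overlap or the stricter q and 3 when either replicate was left out; a window of 1 kb left 1. Of 64 values under the alternatives for single members and lists that had a shared peak, 38 stayed within 1.5 times and 26 did not; the other 56 belong to genes or lists at 0, which stricter settings could not lower. The stricter q and the 50% overlap leave 242 and 3229 peaks, and so fewer for any gene; for the other changes the cause was not tested. No paired analysis was possible because only the BRG1 group has more than 1 library and no result comes from a test.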

Other observations

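Genes next to the 10 members were looked at after the counts above were known. Of the 20 protein-coding neighbours, 1 on either side of each member, 3 had a shared peak, 8 a replicate 1 peak and 4 a replicate 2 peak, against 9.67%, 20.2% and 11.5% of all genes. Most of these neighbours had domains of 100 kb or more. Over all genes with domains of that length the shares were 19.9%, 39.0% and 23.4%. The 3 neighbours with a shared peak were UBE2V1 beside SNAI1, HDAC9 beside TWIST1 and QTMAN beside ZEB2, each with 1. HDAC9, 111 kb from TWIST1, had 6 replicate 1 peaks and 2 replicate 2 peaks in a domain of 1000.4 kb, while HDAC4, 138 kb from TWIST2, had none in any list in a domain of 522 kb. Both encode class IIa histone deacetylases. Beside VIM, ST8SIA6 had 3 replicate 1 peaks and no shared one, and beside SNAI2, CLXN likewise had 3 and none. Around CDH1 few peaks were listed: CDH1, CDH3 and TANGO6 together held 1 peak, in replicate 1, over domains of 104, 125 and 246 kb.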
